A study of Glycine max with 5 samples.

Results

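The genes described here were 81 probe sets of the soybean array, of 37593 in all, that the study placed under the heading of intracellular traffic among the transcripts it found more abundant in mature pollen than in sporophytic tissues. They were selected on the same arrays that are described below, by a significant difference in favour of pollen, so the difference between pollen and sporophytic tissues was the criterion of selection and is given for them as a description with no test. The probe sets were annotated by their best protein match in Arabidopsis, and 52 different Arabidopsis genes were matched, while 1 probe set had a rice match only. They were grouped by this annotation into 6 SEC14-type lipid transfer proteins, 19 SNAREs, 10 SNARE regulators or tethers, 6 Rab GTPases and partners, 9 proteins of the ARF and SAR1 class, 10 coat and adaptor proteins, 6 proteins of cargo selection and retrieval between the ER and the Golgi, 3 proteins of endosome and vacuole sorting and 12 others. No exocyst subunit was among them.

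Pollen (3 arrays) was set against sporophytic tissues (2 arrays), and each array was described as a biological replicate. Both came from soybean (Glycine max) of the cultivar Bragg with no mutation or treatment. Pollen was taken from anthers of greenhouse plants brought to flower by a shorter photoperiod, and was mature and not germinated. The sporophytic RNA was a mixture from seedlings of 10 days. For it the study names leaves and stems, in equal parts of RNA, in one place and roots also in others. Each sporophytic value is thus an average over organs. In such bulk samples fewer cells of a type and less RNA per cell cannot be told apart.

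Vesicles carry membrane and cargo between the compartments of the cell. Small GTPases of the ARF, SAR1 and Rab families recruit coats and tethers, and SNAREs on the vesicle and on the target membrane pair to drive fusion. A pollen tube grows at its tip by the continuous fusion of secretory vesicles that bring cell wall material and membrane, with retrieval of excess membrane by endocytosis, and mature pollen is known to store transcripts for germination.

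Signal was given by the study as log2 values of the robust multi-array average (RMA), in which a signal of 100, the minimum that the study required of its pollen-specific transcripts, equals 6.64. The signal of a probe set depends on its own probes, so only the tissues are compared and the order of signals between probe sets is not an order of transcript abundance. Over the whole array the signal was higher in pollen for 18.9% and lower for 34.5% of probe sets at an adjusted p under 0.05 (limma, Benjamini-Hochberg adjustment over all probe sets), and 36.4% had every pollen array above every sporophytic array. The median log2 difference over all probe sets was -0.22, and pollen arrays had 18.4% to 19.9% of probe sets at a signal of 100 or more, against 33.7% and 35.9% on the sporophytic arrays. The 28 probe sets for genes of green tissue were taken from those that the study listed as lower in pollen on these arrays. Their low pollen signal thus follows from that choice and is no separate check of purity. Their summed signal was 1584 to 1907 on the pollen arrays, against 123139 and 333704 on the sporophytic arrays. Of the 28, 23 were under 100 on every pollen array and 3 over 100 on every one. The 4 probe sets annotated as pollen allergens or pollen-specific proteins, which the study chose on these arrays, summed to 103122 to 111435 on the pollen arrays and to 19 to 24 on the sporophytic arrays, and no probe set could be matched to the tapetum markers. Pollen arrays correlated with each other at r = 0.985 to 0.993 and the sporophytic arrays at r = 0.923 over all probe sets, a description in which probe sets do not stand for replicates.

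Of the 81 traffic probe sets, 79 passed the threshold as higher in pollen (background 18.9%), 0 as lower (background 34.5%) and 2 passed in neither direction, and in all 81 every pollen array lay above every sporophytic array (background 36.4%). These counts follow from the selection. Their median log2 difference (pollen minus sporophytic) was 4.19, with a range of 0.03 to 11.67, beside a median of -0.22 over all probe sets. The pollen mean had a median of 10.95 over the 81, and 77 of them (95.1%, against 17.4% of all probe sets) had a signal of 100 or more on every pollen array.

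A signal under 100 on both sporophytic arrays was found for 41 probe sets (50.6%, against 60.2% of all probe sets). It was 100 or more on both for 34, against 11213 of all 37593 probe sets, and 6 lay on either side. The median log2 difference was 5.07 for those under 100, 3.64 for the 6 in between and 3.79 for those at 100 or more. The class is set by the sporophytic signal, which is also subtracted in the difference, so a larger difference under 100 is partly built in. The pollen mean had a median of 9.57 for those under 100, 10.29 for the 6 in between and 12.41 for those at 100 or more. Outside the 6 in between, the probe sets with the single array value nearest to the limit were named for that reason. They were an ACBP4 probe set with 6.58 and 5.94 on the sporophytic arrays, both under it, and MEMB11 with 6.83 and 7.44, both over it. All 6 SEC14 probe sets were in the class under 100, as were 7 of the 10 for SNARE regulators or tethers. At 100 or more on both arrays were 10 of the 19 SNARE probe sets, 4 of the 6 for Rab proteins and partners and 5 of the 9 for ARF and SAR1 proteins. These are counts of probe sets, and several share a match.

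**Figure D1:**
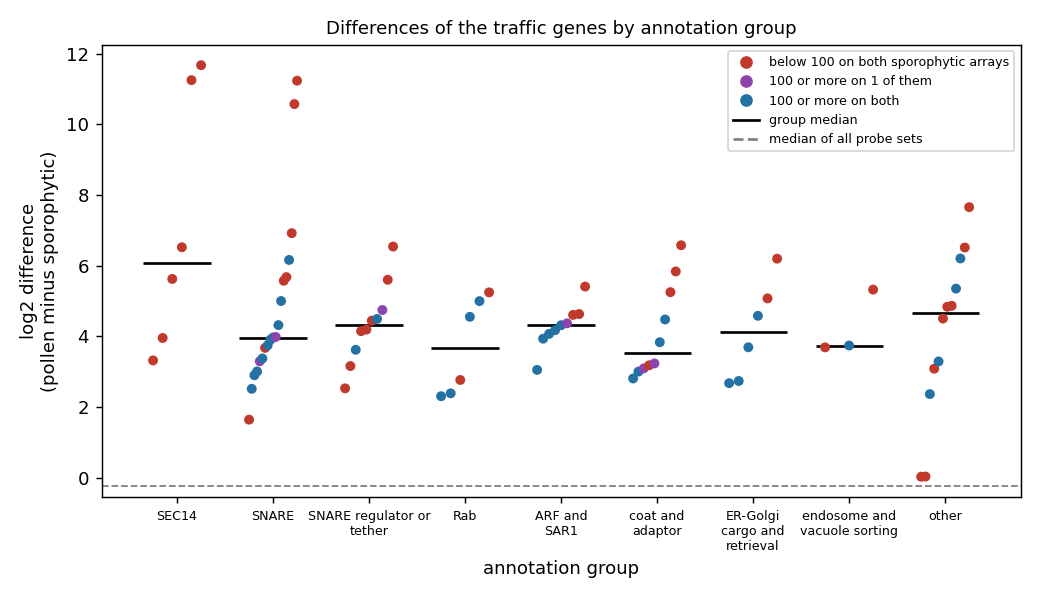
Log2 difference between pollen and sporophytic tissues (vertical axis) of each of the 81 probe sets by annotation group (horizontal axis), coloured by the class of the sporophytic signal. Black lines are group medians, from 3.53 for coat and adaptor proteins to 6.07 for SEC14 proteins, and the dashed line is the median of all probe sets (-0.22).

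SEC14-type proteins transfer phosphatidylinositol and phosphatidylcholine between membranes and are needed for export from the Golgi in yeast. Among the 81 probe sets, the SEC14 group had the highest median difference (6.07), and its first member was the probe set with the greatest difference of the 81 in the deposited values. This probe set, matched to AT2G21540, had values of 14.19, 13.94 and 14.00 on the pollen arrays 1, 2 and 3, against 2.37 on both sporophytic arrays, a log2 difference of 11.67 ± 0.10 (SE from the fit, n = 3 and 2). Pollen was thus near the top of the scale and the sporophytic arrays near its bottom, with no overlap. The SEC14 protein matched to AT1G30690 had 13.45, 13.64 and 13.68 in pollen and 2.38 and 2.30 in sporophytic tissues, a difference of 11.25 ± 0.10. The array held another probe set for the soybean gene of the first, LOC100798374, which read 8.47, 8.35 and 8.18 in pollen and 1.82 and 1.81 in sporophytic tissues. The difference there was 6.52 ± 0.10, and the distance of 5.15 between these values was the widest among the 81 for any Arabidopsis match with several probe sets. The remaining SEC14 proteins were less far apart. The protein matched to AT1G55690 differed by 5.62 ± 0.11, with 9.96, 10.19 and 10.18 in pollen and 4.40 and 4.57 in sporophytic tissues. Both probe sets matched to AT3G24840 differed by 3.95 and 3.32, and the smaller had 8.88, 9.13 and 9.16 in pollen and 5.35 and 6.12 in sporophytic tissues.

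SNAREs formed the most numerous group, with 19 probe sets and a median difference of 3.97, and they ranged over the secretory, vacuolar and ER to Golgi steps. SYP125 is a syntaxin of the plasma membrane that is known from pollen tubes of Arabidopsis. It had values of 13.75, 13.66 and 13.66 in pollen, against 2.54 and 2.37 in sporophytic tissues, a difference of 11.23 ± 0.08. VAMP713, a vesicle SNARE of the vacuolar membrane in Arabidopsis, had 13.73, 13.82 and 13.83 in pollen and 3.16 and 3.28 in sporophytic tissues, a difference of 10.57 ± 0.07. For these 2 SNAREs, as for the SEC14 pair above, the sporophytic values lay far below a signal of 100, and no other probe set of the 81 differed by more than 7.66. SYP132, a syntaxin of the plasma membrane, was represented by a pair of probe sets that differed in level but little in their difference. The first had 11.39, 11.23 and 11.34 in pollen and 4.29 and 4.51 in sporophytic tissues, a difference of 6.92 ± 0.10. The second had 13.50, 13.62 and 13.62 in pollen and 7.14 and 7.70 in sporophytic tissues, a difference of 6.16 ± 0.20, and was thus over 100 in both groups. GOS11, a SNARE of the Golgi, had the highest pollen mean of the SNAREs, with 14.15, 14.23 and 14.32 in pollen and 9.01 and 9.46 in sporophytic tissues, a difference of 5.0 ± 0.16. It was among the 10 SNAREs at 100 or more in both tissues, and the groups did not overlap.

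The other SNAREs were mostly of internal membranes. Of those at the ER and Golgi, both probe sets for SEC20 differed by 3.98 and 3.37, MEMB11 by 3.75, SYP81 by 3.67, SYP31 by 3.29 and both for SEC22 by 2.90 and 2.52. VAM3, a syntaxin of the vacuole and prevacuolar compartment, differed by 3.97 and 3.01 at its probe sets, and VTI13, which acts in vacuolar trafficking, by 5.57. A VAMP-related protein, a Bet1-like SNARE and the SNARE with the rice match differed by 5.68, 4.32 and 3.91. The smallest difference of the group belonged to a protein with a target SNARE domain matched to AT1G27700, with 7.58, 7.42 and 7.42 in pollen and 5.96 and 5.70 in sporophytic tissues, a difference of 1.64 ± 0.11. The groups did not overlap there, which held for all 81 probe sets and follows from their selection. In 16 of the 19 SNARE probe sets the second sporophytic array was higher than the first, which was the case for 64.2% of all probe sets.

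Proteins that regulate or tether SNAREs had a median difference of 4.32. Its leading member was a vesicle-associated membrane family protein (AT5G47180), with 10.11, 10.16 and 10.28 in pollen and 3.64 on both sporophytic arrays, a difference of 6.54 ± 0.07. KEULE, the Sec1-type partner of syntaxins that is required for cytokinesis in Arabidopsis, was matched by 4 probe sets with differences of 5.60, 4.49, 4.44 and 4.19. The KEULE probe set with the greatest difference had 9.79, 9.08 and 9.33 in pollen and 4.18 and 3.42 in sporophytic tissues, and the KEULE probe set with the highest signal had 12.26, 12.48 and 12.47 in pollen and 7.54 and 8.28 in sporophytic tissues. All 4 were higher in pollen, as the selection required, and their pollen means ranged between 8.95 and 12.40. A USO1-related protein, named for the yeast tether of vesicles at the Golgi, differed by 4.75 ± 0.26, and both probe sets for the golgin GRIP by 4.15 and 3.62. A pair of members had a low signal in pollen also. MAG2, which acts in the export of seed storage proteins from the ER in Arabidopsis, had 5.31, 5.48 and 5.79 in pollen and 2.95 and 3.04 in sporophytic tissues, a difference of 2.53 ± 0.17 with every array under a signal of 100. A WD-40 repeat protein (AT5G05570) had 6.76, 6.26 and 6.09 in pollen and 2.90 and 3.51 in sporophytic tissues, and was over 100 on 1 pollen array only.

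**Figure D2:**
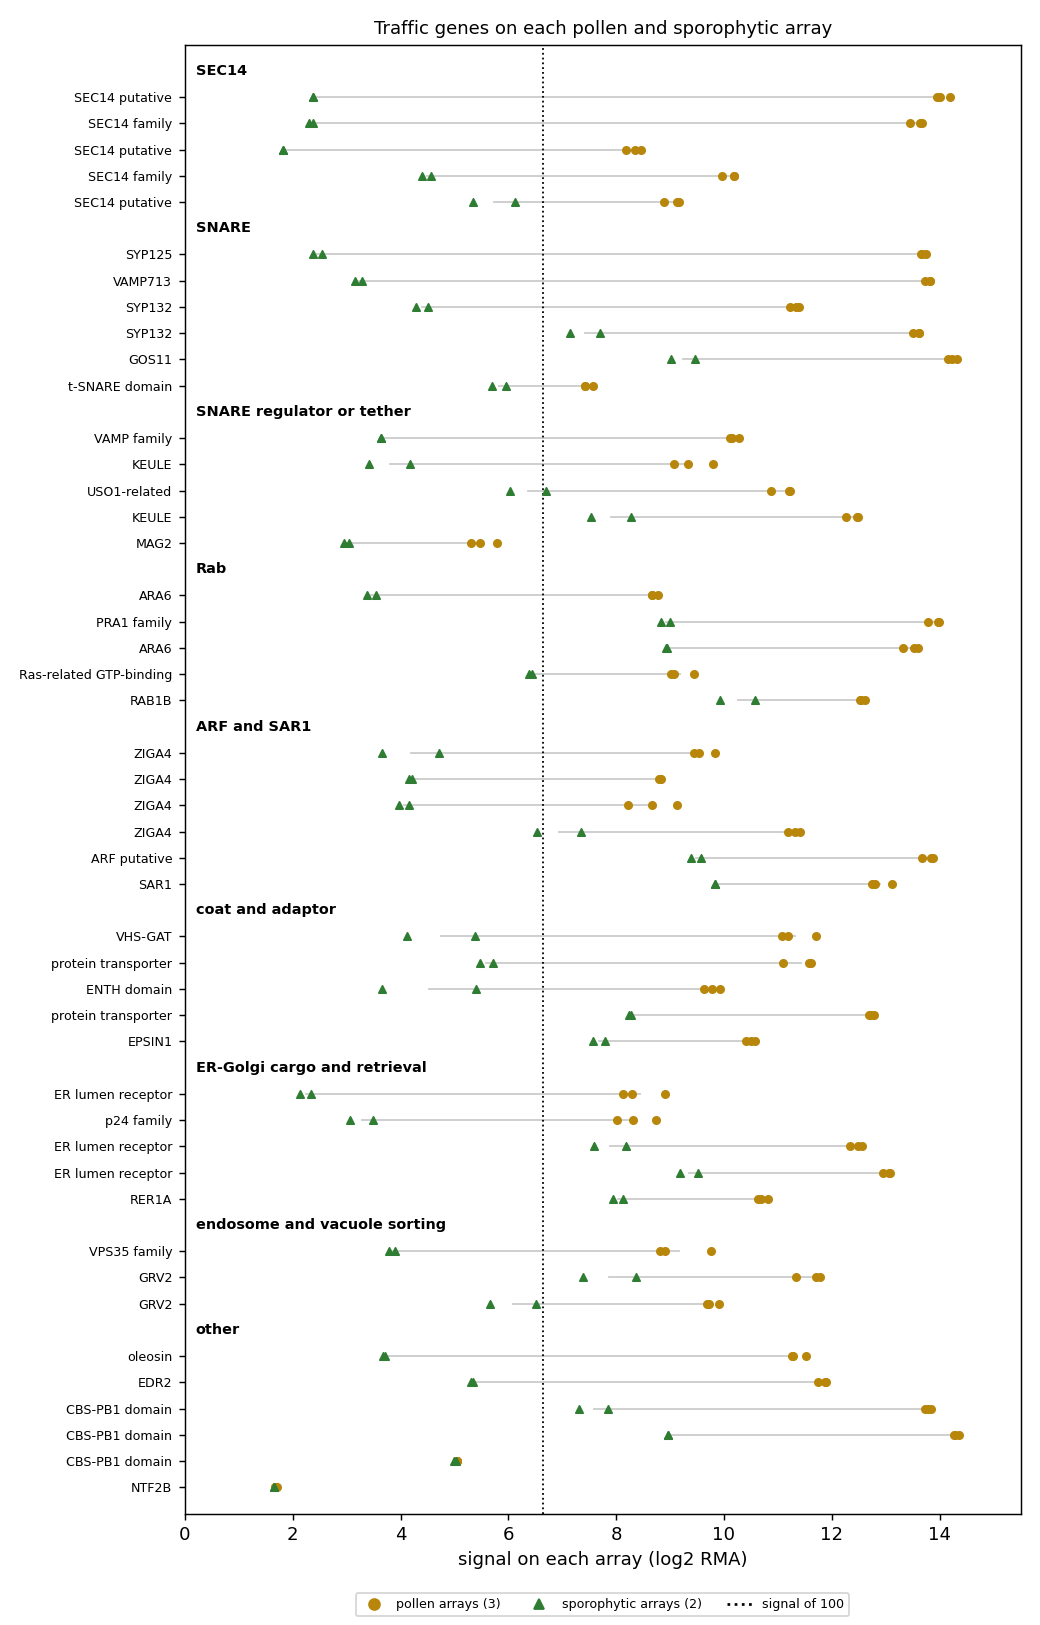
Log2 RMA signal (horizontal axis) of the 46 probe sets named by rule, on each of 3 pollen arrays (circles) and 2 sporophytic arrays (triangles), in their annotation groups. Each grey line joins the group means and the dotted line marks a signal of 100. Most pollen circles lie close together on the right, but those of MAG2 (5.31 to 5.79) and of the bottom pair of rows lie left of the dotted line. The sporophytic triangles spread between 1.65 and 10.58, and in the bottom pair of rows the tissues coincide.

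Rab GTPases direct vesicles to their target membranes. ARA6, a Rab5-type GTPase of endosomes that is particular to plants, was matched by probe sets for different soybean genes, LOC100305769 and LOC100500544. The first had 8.67, 8.67 and 8.78 in pollen and 3.38 and 3.54 in sporophytic tissues, a difference of 5.25 ± 0.08. The second had 13.32, 13.53 and 13.61 in pollen and 8.95 and 8.92 in sporophytic tissues, a difference of 4.55 ± 0.11. Its signal was thus over 100 in both tissues, while that of the first was under 100 in sporophytic tissues. A PRA1 family protein, a membrane receptor for prenylated Rabs, had 13.78, 13.98 and 13.98 in pollen and 8.99 and 8.84 in sporophytic tissues, a difference of 5.0 ± 0.10. Smaller values were found for a Ras-related GTP-binding protein (AT5G59840), with 9.45, 9.08 and 9.02 in pollen and 6.44 and 6.39 in sporophytic tissues and a difference of 2.77 ± 0.16. RAB1B, a GTPase of transport between the ER and the Golgi, differed by 2.39 and 2.31, and the probe set with the higher signal had 12.52, 12.54 and 12.61 in pollen and 10.58 and 9.92 in sporophytic tissues, the highest sporophytic mean of the 81. The second sporophytic array was the higher in 1 of these 6 probe sets.

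Proteins of the ARF and SAR1 class recruit coats to membranes, and ARF GTPase-activating proteins (GAPs) return ARFs to the inactive state. The ARF GAP ZIGA4 was the Arabidopsis match of 5 probe sets, the most for any member, with differences of 5.41, 4.63, 4.61, 4.37 and 3.93. Its sporophytic means ranged between 4.07 and 7.38 and its pollen means between 8.67 and 11.31, so the probe sets spread over all 3 classes of sporophytic signal. The probe set with the smallest spread between replicates had 8.84, 8.82 and 8.80 in pollen and 4.16 and 4.21 in sporophytic tissues. A putative ARF (AT3G49870) was measured by 3 probe sets for the soybean gene LOC100776101. They gave similar differences of 4.32, 4.17 and 4.07, and the first had 13.68, 13.87 and 13.85 in pollen and 9.40 and 9.57 in sporophytic tissues. SAR1, the GTPase of COPII coats, had 13.11, 12.81 and 12.74 in pollen and 9.83 and 9.84 in sporophytic tissues, a difference of 3.05 ± 0.14, the smallest in this class.

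Coat and adaptor proteins had the lowest median difference of all groups (3.53), and 3 of the 4 largest differences came from a single soybean symbol. A protein with VHS and GAT domains, which bind ubiquitinated cargo, was matched to AT3G08790 and had 11.71, 11.08 and 11.19 in pollen and 5.38 and 4.12 in sporophytic tissues, a difference of 6.58 ± 0.47. The same soybean symbol, LOC732580, was carried by a pair of probe sets matched to AT4G32760. They differed by 5.84 ± 0.21 and 4.48 ± 0.05, with 12.78, 12.69 and 12.73 in pollen and 8.24 and 8.27 in sporophytic tissues for the pair member with the higher signal. An ENTH domain protein, of the epsin class that bends membrane and binds clathrin, had 9.63, 9.93 and 9.77 in pollen and 5.40 and 3.65 in sporophytic tissues. Its difference was 5.25 ± 0.59, and its sporophytic arrays were the furthest apart of any member. EPSIN3 differed by 3.83, the other VHS and GAT proteins by 3.09 to 3.23, the alpha subunit of the COPI coatomer by 3.00 and EPSIN1, which takes part in vacuolar sorting in Arabidopsis, by 2.81 ± 0.10.

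The receptor that returns proteins with an ER retention signal from the Golgi was the Arabidopsis match of 4 probe sets, which among the 81 had the widest spread of differences after the SEC14 match. The first had 8.12, 8.90 and 8.30 in pollen and 2.34 and 2.14 in sporophytic tissues, a difference of 6.20 ± 0.28. The others differed by 4.58, 3.69 and 2.74 and were at 100 or more in both tissues, and the strongest of them had 12.96, 13.07 and 13.09 in pollen and 9.51 and 9.18 in sporophytic tissues. A p24 family protein, a cargo receptor of COPI and COPII vesicles, had 8.74, 8.02 and 8.31 in pollen and 3.06 and 3.50 in sporophytic tissues, a difference of 5.07 ± 0.28. RER1A, which retrieves membrane proteins to the ER, differed by 2.68 ± 0.10. In the endosome group, the retromer subunit VPS35 had 9.75, 8.90 and 8.82 in pollen and 3.79 and 3.89 in sporophytic tissues, a difference of 5.32 ± 0.34. GRV2, a DnaJ protein of endosomes needed for vacuolar sorting in Arabidopsis, differed by 3.74 and 3.69 at its probe sets, and in both of them, as for VPS35, the second sporophytic array was the higher.

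The probe sets outside these groups had a median difference of 4.67 and included a pair at the same level in both tissues. An oleosin, a structural protein of oil bodies, had 11.52, 11.28 and 11.26 in pollen and 3.71 and 3.68 in sporophytic tissues, a difference of 7.66 ± 0.11. EDR2, which in Arabidopsis restrains the defence response to powdery mildew, had 11.74, 11.88 and 11.90 in pollen and 5.31 and 5.34 in sporophytic tissues, a difference of 6.51 ± 0.07. A CBS and PB1 domain protein matched to AT3G52950 had the highest pollen mean of the 81 probe sets, with 14.29, 14.36 and 14.26 in pollen and 8.95 on both sporophytic arrays, and its probe sets differed by 6.20, 5.35 and 4.86. In contrast, a related protein matched to AT5G50640 had 5.05 on every pollen array and 5.02 and 5.0 on the sporophytic arrays, a difference of 0.04 ± 0.05. NTF2B, which carries Ran into the nucleus, had 1.67, 1.71 and 1.67 in pollen and 1.66 and 1.65 in sporophytic tissues, a difference of 0.03 ± 0.05. These were the 2 listed probe sets that did not pass the threshold, and both lay under a signal of 100 on every array. Another probe set for the NTF2B soybean gene, which the study did not list, also had a difference near zero (0.01 ± 0.04).

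**Figure D3:**
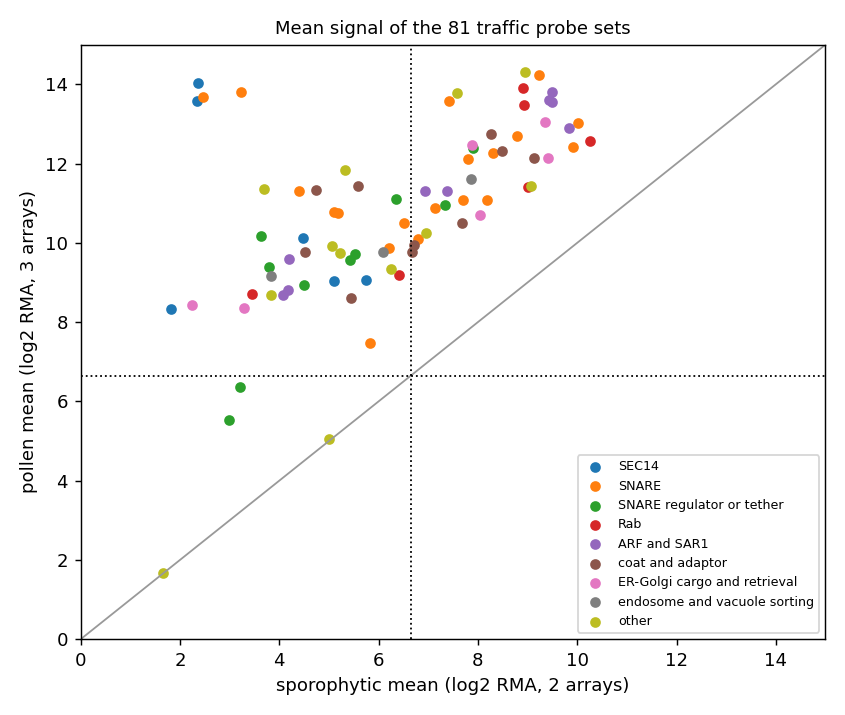
Pollen mean (vertical axis, 3 arrays) against sporophytic mean (horizontal axis, 2 arrays) of the 81 probe sets in log2 RMA units, coloured by annotation group, with dotted lines at a signal of 100 and a grey line of equality. The 2 probe sets that did not pass the threshold lie on the line of equality and all others above it.

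Several probe sets shared a match, so the 81 are not 81 independent genes. More than 1 probe set was found for 19 Arabidopsis genes, with 47 probe sets in all, and a single probe set for 33. The differences within a match spanned a median of 0.69, between 0.05 for GRV2 and 5.15 for SEC14, and 13 of the 19 matches spanned less than 1. Within 11 of the 19 the sporophytic class was not the same for all probe sets, as for both ARA6 genes. A soybean symbol was available for 24 probe sets, which gave 17 different symbols, and 10 probe sets were of a design that can detect several transcripts.

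A further 9 probe sets shared a soybean gene or an array sequence cluster with a member but were not listed by the study, and their absence from the list itself depended on this contrast. In 6 of them the signal was higher in pollen (background 18.9%), in 1 it was lower (background 34.5%) and in 2 it passed in neither direction. For EDR2, such a probe set had 9.05, 9.49 and 9.47 in pollen and 6.88 and 7.47 in sporophytic tissues, a difference of 2.16 ± 0.26 where the listed probe set had 6.51. For SEC20, another had 5.75, 5.57 and 5.80 in pollen and 6.28 and 6.88 in sporophytic tissues, a difference of -0.87 ± 0.22. In the deposited values the cluster thus held probe sets of either direction. Equal array medians moved the median of all probe sets from -0.22 to 0.93, a shift larger than this fall, so its direction depends on the scaling. For the VHS and GAT protein AT5G16880, another had a difference of 0.12 ± 0.08 and did not pass the threshold.

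The study also listed 250 probe sets under the same heading as less abundant in pollen, likewise chosen on these arrays, of which 246 were lower at the threshold (background 34.5%) and 4 passed in neither direction, with a median difference of -3.66. Of these, 13 probe sets had the same Arabidopsis match as a member, over 8 matches, and 12 of the 13 were lower in pollen, counts that follow from the choice of the list. SYP132 had a probe set with 4.53, 5.13 and 4.95 in pollen and 7.19 and 8.20 in sporophytic tissues, a difference of -2.82, and another with -2.79, beside the 6.92 and 6.16 of the listed pair. The SEC14 match AT1G30690 had 3.65, 3.80 and 3.73 in pollen and 8.69 and 8.36 in sporophytic tissues at its probe set of the lower list, a difference of -4.80 beside 11.25. At both matches, probe sets with the same Arabidopsis counterpart differed in opposite directions. For the alpha coatomer the differences were -3.02 and -2.71 beside 3.00, for the VHS and GAT protein AT5G16880 -3.69 and -3.44 beside 3.18, for the p24 protein -3.23 beside 5.07 and for SAR1 -2.44 beside 3.05. NTF2B had 3 such probe sets, at -4.76, -2.42 and -0.84, and the Ras-related protein AT5G59840 had 1, at -0.55, which did not pass the threshold. Equal array medians moved the median of all probe sets from -0.22 to 0.93, so the direction of the falls of -0.84 and -0.55 depends on the scaling.

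**Figure D4:**
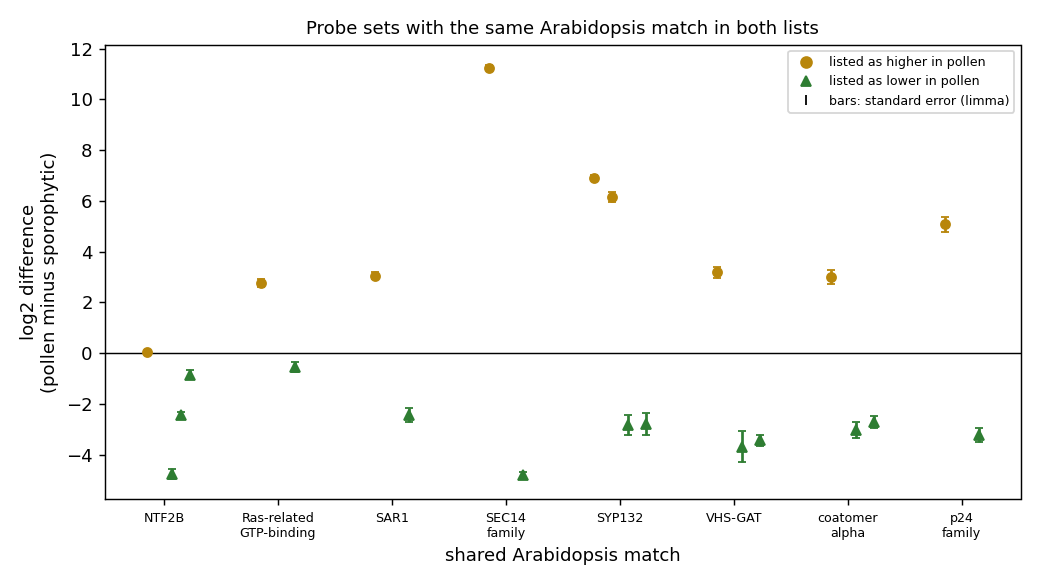
Log2 difference between pollen and sporophytic tissues (vertical axis) of probe sets that share an Arabidopsis match (horizontal axis) and that the study listed as higher in pollen (circles) or as lower in pollen (triangles), with the standard error of limma as bars. In the deposited values all circles but NTF2B (0.03) lie above 2 and all triangles lie below zero, from -0.55 for the Ras-related protein to -4.80 for SEC14.

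By family, sorted with name patterns that were chosen after the values were seen, both lists held SEC14 and patellin proteins (6 of the 81 and 16 of the 250), SNAREs (18 and 19), Rab proteins (6 and 7), coatomer, clathrin and adaptor proteins (8 and 24), ER to Golgi cargo and retrieval proteins (6 and 6) and endosome or vacuole sorting proteins (3 and 8). The ARF and SAR1 class had 9 of the 81 and 3 of the 250, of which 1 passed the threshold as lower. Exocyst subunits, which tether secretory vesicles to the plasma membrane, were not among the 81, and 3 were in the lower list, a difference between lists that was not tested. EXO70F1, EXO70D3 and SEC10 fell by 2.76, 2.03 and 1.61 in pollen, and all 3 passed the threshold (background 34.5%), as the choice of that list would have it. These falls are those of the deposited values. Equal array medians moved the median of all probe sets from -0.22 to 0.93, so the falls would be smaller under that scaling. Annexins (13 probe sets), lipid transfer proteins (23) and endomembrane proteins 70 (13) were also in the lower list with no member among the 81, and Ran and nuclear transport proteins had 1 and 27.

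Rab and SNARE proteins were also found under other headings of the higher list. There were 12 such probe sets, of which 9 were Rab GTPases or Rab regulators and 3 syntaxins or other SNAREs, and none was an exocyst subunit. A Rab-type GTPase had 11.20, 11.37 and 11.55 in pollen and 2.23 on both sporophytic arrays, a difference of 9.14, which exceeded that of any Rab among the 81. RABA1f, of the Rab11-type class that acts in secretion toward the cell surface, differed by 6.32, 4.67 and 4.34 at its probe sets and RABA5a by 4.78. The syntaxin family probe sets differed by 6.08 and 4.82 and NPSN11, a SNARE of the cell plate, by 4.16.

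Genes of the same pathways outside the 81 were sought by their symbols in the array annotation, with patterns for 9 classes. Only the Rab and SNARE patterns matched, with 7 probe sets. GOS12 and the RAB2 probe set with the larger difference were in the lower list of the study. Of the 7, 0 were higher in pollen at the threshold (limma, adjusted over all probe sets, background 18.9%), 3 were lower (background 34.5%) and 4 passed in neither direction. Because the 81 members of the higher list were left out and part of the 7 came from the lower list, these counts depend on the study's selection on the same arrays. RAB7P, a Rab of the late endosome and vacuole, had 5.28, 5.25 and 5.28 in pollen and 8.01 and 7.60 in sporophytic tissues, a difference of -2.54 ± 0.14 (adjusted p = 0.00056 by limma), which was -0.99 after quantile normalization and -1.39 with all array medians set equal. RAB2, of the ER and Golgi, fell by 2.37 (adjusted p = 0.0123 by limma) at the first probe set, where the difference was -1.32 after quantile normalization (adjusted p = 0.0541 by limma) and -1.22 with equal medians. At the second it fell by 1.11 (adjusted p = 0.0117 by limma), although this difference was -0.23 after quantile normalization and 0.03 with equal medians. GOS12 had a difference of -0.41 (adjusted p = 0.054 by limma), which turned to 0.90 after quantile normalization and 0.74 with equal medians, and the 3 probe sets for VAMP721D had -0.23, 0.02 and 0.06, which became 1.01, 0.33 and 0.37 after quantile normalization.

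The agreement between replicates differed by tissue. Over the 81 probe sets the median SD was 0.12 among the 3 pollen arrays and 0.29 between the 2 sporophytic arrays, beside 0.08 and 0.27 over all probe sets. The second sporophytic array was higher than the first for 53 of the 81 (65.4%, against 64.2% of all probe sets), with a median of -0.14 for the first minus the second, against -0.08 over all. The RAB1B and ARA6 probe sets with high sporophytic signal and the PRA1 protein were higher on the first array, while all 3 endosome and vacuole sorting probe sets were higher on the second.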

How the data were processed

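RNA of mature pollen (3 arrays) and of sporophytic tissues (2 arrays) was hybridised to the Affymetrix soybean array. The deposited values are on the log2 scale and were made by the authors with robust multi-array averaging (RMA) in AffylmGUI; scanner files were not used here, and 0 value columns lacked a sample. A linear model with empirical Bayes moderation was fitted to all 37593 probe sets with limma 3.58.1 in R 4.3.3 (residual degrees of freedom 3, prior 0.854), the p-values (two-sided) being adjusted by Benjamini-Hochberg across the whole table and called under 0.05. The fit was tested on simulated data. The number of arrays limits the precision. Members came from the annotated transcripts that the study listed; its statistics were not used. The members and lists were chosen with earlier results of these data known. In each annotation group the 4 members with the greatest difference, the smallest and the highest pollen signal were named, with the 3 smallest differences overall and every member not passing the threshold; other members were named for their role after their values were seen. Other scalings, variance models, signal limits, probe set filters, a replicate block and the omission of each array were tried.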

Additional observations from a re-analysis of the deposited data

How the results depend on the processing

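Alternatives for single differences were run for the 46 members named by rule only. Of the 46, 543 comparisons with alternatives left 533 on the same side of the threshold, none reversed, 6 lost it and 4 gained it: with array weights MAG2, the Ras-related protein, 1 ZIGA4, 1 ER lumen receptor and VPS35 lost it (adjusted p of 0.0504 to 0.122, limma), and the AT5G50640 and NTF2B probe sets gained it under other scalings, AT5G50640 also without sporophytic replicate 1. The count of 79 members called higher was 79 to 80 when single arrays were left out, 69 with array weights, 69 without probe sets shared by several transcripts, which leaves fewer members, and 51 with 1 probe set per Arabidopsis match, which tests fewer. Their median difference of 4.19 was 5.04 after quantile normalization and 5.34 with equal medians, which moved the median of all probe sets to 0.12 and 0.93; it was 4.32 with a signal of 100 required on at least 1 array, 4.32 without probe sets shared by several transcripts, 3.91 with 1 probe set per match, and 4.19 to 4.29 when single arrays were left out. The 41 members under 100 in sporophytic tissues were 24 with 1 probe set per match, 31 at a limit of 50, 49 at 200 and 41 to 47 without single arrays. The class also moved with the scaling, to 49 members after quantile normalization and 48 with equal medians.

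Of the pathway genes outside the 81, 4 instead of 0 were higher after quantile normalization and 4 with equal medians, and 0 without any single pollen array. These 4 were GOS12 and the 3 VAMP721D probe sets. Of the latter, 2 read 3.22 to 3.35 on every array of both tissues, and GOS12 read 4.99 to 5.62, all under a signal of 100. The remaining VAMP721D probe set read 7.25 to 8.39. Equal medians moved the median of all probe sets from -0.22 to 0.93. The backgrounds of 18.9% and 34.5% are those of the main fit to the deposited values. They do not apply to counts under another scaling or setting, here or for the 81. The 3 pathway probe sets that were lower became 1 after quantile normalization, 1 with array weights, 1 with the replicate block and 1 at an adjusted p under 0.01, and 2 to 3 without single pollen arrays. The cause was not tested. Replicate numbers were not said to pair arrays, and deviations of arrays with the same number correlated at 0.0242 and 0.0161. With the replicate block 77 members were called higher, with a median of 4.24, and the ENTH domain protein was lost (adjusted p = 0.0621 by limma). No array group was large enough for a search for outlying arrays, and 2 sporophytic arrays limit every difference.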
